A study of Mus musculus with 8 samples.

Results

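Replication-dependent histone genes were taken as every symbol of the count files that begins with Hist1h, Hist2h, Hist3h or Hist4h, which gave 68 of the 23420 genes listed. By class they comprise 6 genes for the linker histone H1, 18 for H2A, 19 for H2B, 12 for H3 and 13 for H4. By cluster 54 lie in Hist1, 10 in Hist2, 3 in Hist3 and 1 in Hist4. They were followed in thymocytes, T cells that are still maturing in the thymus, of wild-type mice whose strain is known from the library names alone, BALB and B6, with no substrain given. The 4 groups are BALB whole thymocytes, BALB DP thymocytes, B6 whole thymocytes and B6 DP thymocytes, with 2 RNA-seq libraries each and 8 in all, and the labels list no treatment and no age. DP thymocytes were sorted as cells bearing both CD4 and CD8, lacking the activation marker CD69, with low or intermediate H57 (T cell receptor beta) staining. No label says that replicate libraries are from different animals, so the p-values below measure the spread between these libraries, which may be technical except in BALB whole thymocytes, where Xist and Ddx3y differ between the libraries (below).

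Replication-dependent histone genes supply the proteins that package newly copied DNA, and most are transcribed mainly in S phase. H2A, H2B, H3 and H4 form the nucleosome core, and H1 binds the linker between cores. Their mRNAs usually lack introns and end in a stem-loop rather than a poly(A) tail. The stem-loop is bound by SLBP and cut with the help of the U7 snRNP, and it also ties mRNA decay to the end of DNA synthesis. In the thymus, dividing precursors give rise to a large population of small resting DP cells, so the share of cells in cycle varies between stages. The library kit named in the labels selects RNA by its poly(A) tail, so levels here are those of histone RNA that passed such a selection. In bulk RNA, fewer cells in S phase and less histone RNA per cell cannot be told apart.

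The stem-loop is shown for 6 members, 1 or more from each class, because it is the feature that the family shares and the kit does not select. It was found in 44 of the 68 members by a search of the GENCODE M21 transcripts (GRCm38, the build also called mm10) for a stem-loop motif whose forms are given after the sequences. Capitals mark the 16 bases of the stem and loop, with 5 bases on either side in lower case, and coordinates are those of the capitals.
Hist1h1c (H1, chr13:23739512-23739527, + strand): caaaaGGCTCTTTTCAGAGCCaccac
Hist3h2a (H2A, chr11:58955172-58955187, + strand): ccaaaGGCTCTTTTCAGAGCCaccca
Hist1h2bb (H2B, chr13:23747203-23747218, + strand): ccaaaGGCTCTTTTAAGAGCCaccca
Hist1h3b (H3, chr13:23752820-23752835, + strand): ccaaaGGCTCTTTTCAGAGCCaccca
Hist1h4d (H4, chr13:23581950-23581965, + strand): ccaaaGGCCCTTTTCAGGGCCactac
Hist4h4 (H4, chr6:136803998-136804013, - strand): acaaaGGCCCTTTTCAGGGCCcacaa

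The form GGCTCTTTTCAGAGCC was found in 26 members, of classes H1, H2A, H2B and H3, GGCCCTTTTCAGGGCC in 7 members, all of them H4, and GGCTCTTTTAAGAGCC in 6 members of H1, H2B and H3. Of the remaining 5 members, 2 H4 genes held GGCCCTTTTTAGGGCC and 3 genes had a form of their own. The annotated transcript ended within 100 bases of the stem-loop in 22 members and ran further in the other 22, as in Hist1h1c (840 bases past it) and Hist4h4 (2445 bases past it). The 22 members with such longer transcripts held 53.7% of the family's mean CPM (counts scaled to each library's total over tested genes, with TMM factors). The 22 that end near the stem-loop held 13.8%, and the 24 with no match in the annotated transcript held 32.5%. CPM are not corrected for length, so longer transcripts can hold more of them. Members with no match include short annotated transcripts, such as Hist2h2bb (381 bases) and Hist1h2ak (393 bases). These are descriptions of the annotation, and which 3′ end the reads came from was not tested.

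The libraries held 2632083 to 5974684 counts in genes. Of the 68 members, 61 passed the filter on low counts. The 7 others were Hist1h2ao, Hist1h2ap, Hist1h2bq, Hist1h2br, Hist1h4m, Hist2h2aa1 and Hist2h2aa2, with 9 counts in all over the 8 libraries. Hist1h2ap, Hist1h2bq, Hist1h2br and Hist2h2aa1 had 0 counts in every library, which allows up to 0.093 CPM of gene counts (3 counts over the 32250071 of all libraries, counting error only). These 7 also had 88.7% to 100% of the 50-base words of their transcripts in another gene's transcripts, against 0% to 93.9% (median 43.2%) in the 61 tested members. The deposited summaries list 10.1% to 11.9% of each library's reads as not uniquely aligned and outside the gene counts. The level of the 7 is therefore uncertain, and so is how reads divide among the 23 tested members with at least 50% of their words elsewhere.

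The sort was visible in the markers of other thymic cells. Summed over 5 genes, markers of mature thymocytes averaged 63.1 ± 2.46 CPM in BALB DP libraries and 69.2 ± 2.88 CPM in B6 DP libraries, against 269 ± 21.1 CPM in BALB whole and 197 ± 22.1 CPM in B6 whole libraries (SD, n = 2 each). Markers of DN thymocytes, the dividing precursors before the DP stage, summed to 17.7 ± 0.762 CPM in BALB DP and 40.8 ± 2.72 CPM in B6 DP libraries (SD, n = 2 each), with Il2ra and Ptcra lower in BALB and the other 2 tested markers not called. Of 7 markers of DP cells, 3 were lower and 0 higher in BALB DP than in B6 DP libraries, with summed means of 11754 ± 166 CPM and 18566 ± 545 CPM (SD, n = 2 each). All 7 had negative estimates, and 4 were not called. Rag1 was the largest part of these sums, with 4811 and 4844.5 CPM in BALB DP, against 10504 and 9864 CPM in B6 DP. Cd8a had 1697 and 1698 CPM in BALB DP, against 1914 and 1833 CPM in B6 DP. In whole libraries the DP markers summed to 8412 ± 355 CPM in BALB and 11210 ± 364 CPM in B6, with 6 of 7 lower in whole than in DP cells of each strain. DN markers summed to 71.0 ± 3.75 CPM in BALB whole and 124 ± 23.6 CPM in B6 whole libraries, with 3 of 4 higher in whole than in DP cells of each strain. Markers of thymic epithelium summed to 63.0 ± 5.12 CPM in BALB whole and 19.6 ± 6.50 CPM in B6 whole libraries (2 of 4 higher in BALB), and to 1.39 ± 0.231 CPM in BALB DP and 0.885 ± 0.364 CPM in B6 DP libraries. Myeloid markers summed to 72.8 ± 8.65 CPM in BALB whole and 53.2 ± 4.02 CPM in B6 whole, and to 11.6 ± 3.2 CPM in BALB DP and 9.85 ± 4.17 CPM in B6 DP libraries. Rn45s, the ribosomal RNA precursor, took 3.14% of counts in BALB DP replicate 1 and 6.94% in replicate 2, against 5.11% to 8.35% in the other 6 libraries. BALB whole replicate 1 had 12313 counts of Xist and 0 of the Y-linked Ddx3y, and replicate 2 had 203 and 725, so these libraries do not hold RNA of the same animals alone. The other 6 libraries had 6 to 24 counts of Xist and 444 to 1177 of Ddx3y. Sex may therefore differ in both comparisons that use BALB whole thymocytes, and it cannot be told apart from strain or population there. The part of each of these in the histone results was not tested.

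Histone genes made up the largest share of gene counts in BALB DP thymocytes. The 68 members together held 1.24% and 1.11% of counts in BALB whole libraries and 2.32% and 1.81% in BALB DP libraries. They held 1.04% and 1.11% in B6 whole libraries and 1.28% and 1.19% in B6 DP libraries. The counting intervals are narrow, for example 1.79% to 1.82% for BALB DP replicate 2 (Wilson, 95%, counting error only). Both BALB DP libraries lay above the other 6.

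**Figure D1:**
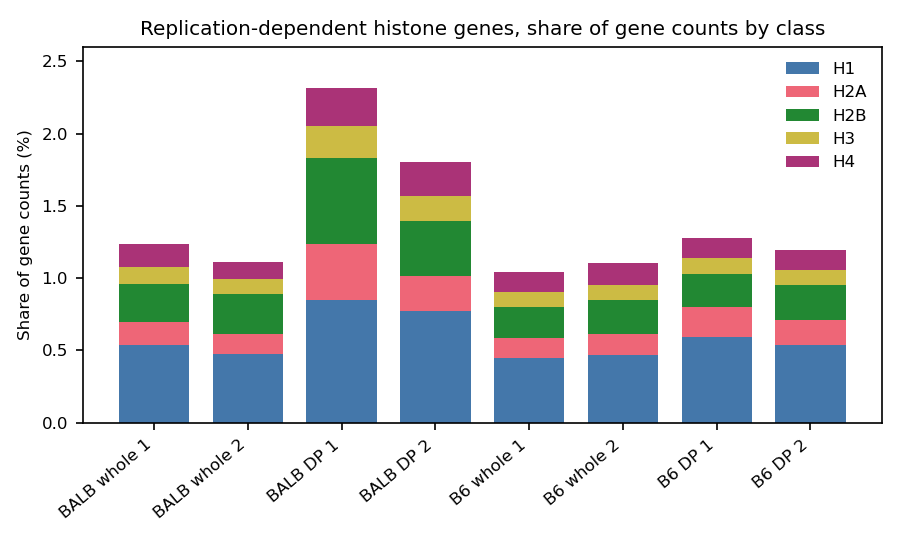
Stacked bars give the percent of each library's gene counts that fell in histone genes of class H1, H2A, H2B, H3 and H4, for 2 libraries of each of the 4 groups. The BALB DP bars reach 2.32% and 1.81%, and the other 6 lie between 1.04% and 1.28%.

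Each class took part in that difference. H1 summed to 8882 and 7900 CPM in BALB DP libraries and to 6115 and 5582 CPM in B6 DP libraries. H2A summed to 4042 and 2463 CPM in BALB DP, against 2091 and 1836 CPM in B6 DP. H2B summed to 6239 and 3919 CPM in BALB DP, against 2391 and 2493 CPM in B6 DP. H3 summed to 2310 and 1749 CPM in BALB DP, against 1132 and 1068 CPM in B6 DP. H4 summed to 2776 and 2425 CPM in BALB DP, against 1418 and 1444 CPM in B6 DP. In each of the 5 classes both BALB DP libraries were above both B6 DP libraries, and BALB DP replicate 1 was above replicate 2. By cluster, the ratio of the BALB DP mean to the B6 DP mean was 1.57 for Hist1, 2.30 for Hist2 and 3.27 for Hist4. The Hist3 genes summed to 446 ± 51.1 CPM in BALB DP and 446 ± 25.6 CPM in B6 DP libraries (SD, n = 2 each).

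Few members carry most of the reads of a class. Hist1h1c, Hist1h1d and Hist1h1e, which encode somatic linker histones, held 76.2% of the H1 CPM over all libraries, without correction for length. Hist2h2bb, Hist1h2be and Hist1h2bb held 70.2% of H2B, and the 3 leading members held 52.7% to 55.0% of H2A, H3 and H4. Per kilobase of annotated exon, Hist2h2bb stood first, at a mean of 3981 CPM per kb over the 8 libraries, ahead of Hist1h1c at 1400 and the H2A gene Hist1h2ak at 1160 CPM per kb. By this measure Hist1h1d, with 7425 bases, ranked 5 among the H1 genes at 177 CPM per kb. Hist1h2be, with 4446 bases, ranked 8 among the H2B genes at 98.4 CPM per kb. The lengths are those of GENCODE M21, in which Hist2h2bb has 381 bases, and the authors' annotation is not given in the sources used here, so this order depends on the lengths used.

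In DP thymocytes, 32 of the 61 tested members were higher in BALB than in B6 and none was lower (edgeR quasi-likelihood test, Benjamini-Hochberg adjusted p under 0.05). Of all 11409 genes tested, 6.85% were called higher and 6.14% lower in this comparison. The median log2 fold change of the members was 0.75, against 0.00 for all genes tested, and 57 of 61 were positive. Both BALB DP libraries were above both B6 DP libraries for 43 of the 61 members, a pattern that 26.1% of all tested genes showed. By class, 10 of 12 H3 members, 10 of 17 H2B, 6 of 14 H2A, 4 of 12 H4 and 2 of 6 H1 members were higher. By cluster these were 26 of 49 in Hist1, 5 of 8 in Hist2, 0 of 3 in Hist3 and the single Hist4 gene. Fitted on the 4 DP libraries alone the count was 16, beside 2.22% of all genes called higher. Without B6 DP replicate 1 it was 15 (2.18% of all genes), and without B6 DP replicate 2 it was 9 (1.80%).

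**Figure D2:**
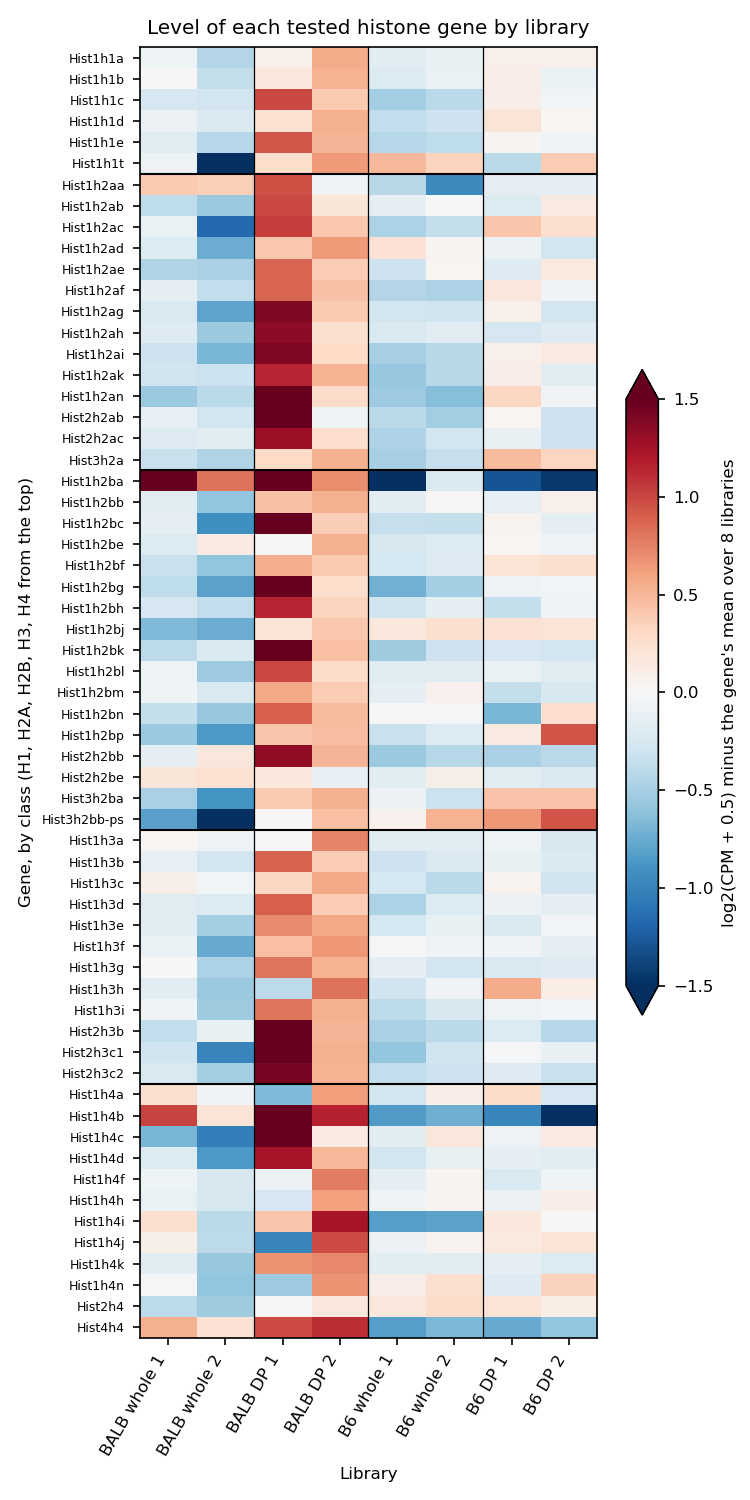
Rows are the 61 tested histone genes grouped by class and columns the 8 libraries. Colour gives log2(CPM + 0.5) minus the gene's mean over the libraries, with red above and blue below that mean, and the pair of BALB DP columns is red for most genes.

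Among H1 genes, Hist1h1c had 4092 and 2701 CPM in BALB DP thymocytes, against 2214 and 2004 CPM in B6 DP thymocytes. Hist1h1e had 1792 and 1337 CPM in BALB DP, against 969 and 896 CPM in B6 DP. For both genes the BALB DP libraries lay above the B6 DP libraries, and edgeR's quasi-likelihood test called them higher (log2 0.69 ± 0.15 SE, adjusted p = 0.011 for Hist1h1c; 0.75 ± 0.13 SE, adjusted p = 0.0036 for Hist1h1e). Hist1h1d had 1508 and 1862 CPM in BALB DP and 1472 and 1311 CPM in B6 DP and was not called (log2 0.28 ± 0.11 SE, adjusted p = 0.12). Hist1h1e and the H2B gene Hist1h2be overlap on the same strand in the annotation, so their counts may not be independent.

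Among core histones, Hist2h2bb, the H2B gene with the most reads, had 3435 and 1943 CPM in BALB DP thymocytes, against 978 and 1039 CPM in B6 DP thymocytes. The groups did not overlap, and the log2 fold change was 1.42 ± 0.20 SE (edgeR quasi-likelihood test, adjusted p = 0.0009). Hist1h2bb had 275 and 292 CPM in BALB DP, against 185 and 213 CPM in B6 DP, the smallest change among the 32 genes at 1.42-fold. Hist1h2be was not called in any comparison, with 438 and 627 CPM in BALB DP and 439 and 415 CPM in B6 DP. Of the H2A genes, Hist1h2ak had 933 and 606 CPM in BALB DP, against 451 and 377 CPM in B6 DP. Hist2h2ac had 820 and 401 CPM in BALB DP, against 311 and 271 CPM in B6 DP. Both H2A genes were called higher, by 0.90 ± 0.17 and 1.08 ± 0.24 (log2 ± SE), and for Hist2h2ac replicate 1 of BALB DP was far above replicate 2. Hist1h2af, with 341 and 252 CPM in BALB DP and 208 and 178 CPM in B6 DP, was also higher.

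H3 was the class with the largest share of members called. Hist2h3c2 had 607 and 323 CPM in BALB DP thymocytes, against 198 and 179 CPM in B6 DP thymocytes (log2 1.31 ± 0.22 SE, edgeR adjusted p = 0.0027). Hist1h3b had 496 and 351 CPM in BALB DP, against 248 and 230 CPM in B6 DP. Hist1h3d had 269 and 188 CPM in BALB DP, against 136 and 132 CPM in B6 DP. In these 3 genes the groups did not overlap. Hist1h3e rose to 207 and 190 CPM in BALB DP, against 109 and 124 CPM in B6 DP. Hist1h3g rose to 138 and 113 CPM in BALB DP, against 67.2 and 69.2 CPM in B6 DP. Hist1h3i rose to 144 and 119 CPM in BALB DP, against 77.8 and 79.7 CPM in B6 DP. Within each of the 6 genes, BALB DP replicate 1 had the highest value of the 8 libraries. The H3 members not called were Hist1h3a and Hist1h3h.

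Apart from the rare Hist1h2ba, described below, the H4 class held the members with the largest log2 fold changes, and also members with almost none. Hist1h4b had 318 and 218 CPM in BALB DP thymocytes, against 49.6 and 34.5 CPM in B6 DP thymocytes. Hist4h4, the single gene of the Hist4 cluster, had 314 and 344 CPM in BALB DP, against 94.8 and 106 CPM in B6 DP. Every BALB DP value of these genes was more than 2 times every B6 DP value, with log2 fold changes of 2.69 ± 0.27 SE (adjusted p = 5.8e-05) and 1.70 ± 0.13 SE (adjusted p = 7.8e-06) by edgeR's quasi-likelihood test. Both passed the threshold under each of the 16 alternatives tried for this comparison. Hist1h4d, the H4 gene with the most reads, had 1119 and 670.4 CPM in BALB DP, against 434 and 426 CPM in B6 DP, and Hist1h4k had 122 and 126 CPM in BALB DP, against 69.7 and 66.0 CPM in B6 DP. Both were called higher. Hist2h4 had 226 and 249 CPM in BALB DP and 257 and 242 CPM in B6 DP, groups that overlapped (log2 -0.07 ± 0.11 SE, adjusted p = 0.70).

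Hist1h2ba, the H2B of the testis in the mouse, was rare but differed between strains in DP cells. It had 38 and 7 counts in BALB DP libraries, against 1 and 1 counts in B6 DP libraries, a ratio of 20.5 per gene count with an exact 95% counting interval of 5.35 to 174. It was called higher (adjusted p = 0.014, edgeR quasi-likelihood test), though not without BALB DP replicate 1 (adjusted p = 0.15) or without either B6 DP library (adjusted p = 0.074 and 0.14). In whole thymocytes it had 23 and 12 counts in BALB and 0 and 5 counts in B6, and was not called (adjusted p = 0.089). Its name is given here for the highest fold change in the family, chosen after its values were seen.

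In whole thymocytes the strains differed in 5 members. Hist1h4b and Hist4h4 were higher in BALB, and Hist1h2bj, Hist2h4 and the pseudogene Hist3h2bb-ps were lower. Of all genes tested, 1.98% were called higher and 2.61% lower here, so 2 of 61 and 3 of 61 members are near the background. The median log2 fold change of the members was -0.09, against 0.02 for all genes, and 26 of 61 were positive. Reads of both strains were aligned to a B6 genome. Hist1h4b, Hist4h4, Hist1h2bj, Hist2h4 and Hist3h2bb-ps have 54.6%, 8.52%, 59.4%, 1.01% and 30.0% of their 50-base words in other genes. Whether strain variants changed which reads aligned uniquely was not tested, here or in DP cells.

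Hist1h4b had 198 and 112 CPM in BALB whole thymocytes, against 54.2 and 58.8 CPM in B6 whole thymocytes. Hist4h4 had 232 and 186 CPM in BALB whole, against 89.7 and 100.1 CPM in B6 whole. Neither pair of groups overlapped, and the log2 fold changes were 1.45 ± 0.26 SE (adjusted p = 0.0062) and 1.14 ± 0.13 SE (adjusted p = 0.00022). Hist1h2bj fell to 40.8 and 38.7 CPM in BALB whole, against 72.7 and 76.4 CPM in B6 whole (log2 -0.91 ± 0.13 SE, adjusted p = 0.0013). Hist2h4 fell to 169 and 154 CPM in BALB whole, against 248 and 269 CPM in B6 whole (log2 -0.68 ± 0.11 SE, adjusted p = 0.0023). Hist3h2bb-ps had 25 and 11 counts in BALB whole, against 46 and 66 counts in B6 whole (log2 -1.63 ± 0.35 SE, adjusted p = 0.018). These adjusted p-values are from edgeR's quasi-likelihood test. Hist4h4 and Hist1h2bj passed under each of the 16 alternatives, while Hist1h4b missed the threshold without B6 whole replicate 1 (0.083), B6 whole replicate 2 (0.064) or BALB whole replicate 1 (0.078). Hist2h4 missed it without B6 whole replicate 2 (0.061), and Hist3h2bb-ps without B6 whole replicate 2 (0.20) or BALB whole replicate 2 (0.18).

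**Figure D3:**
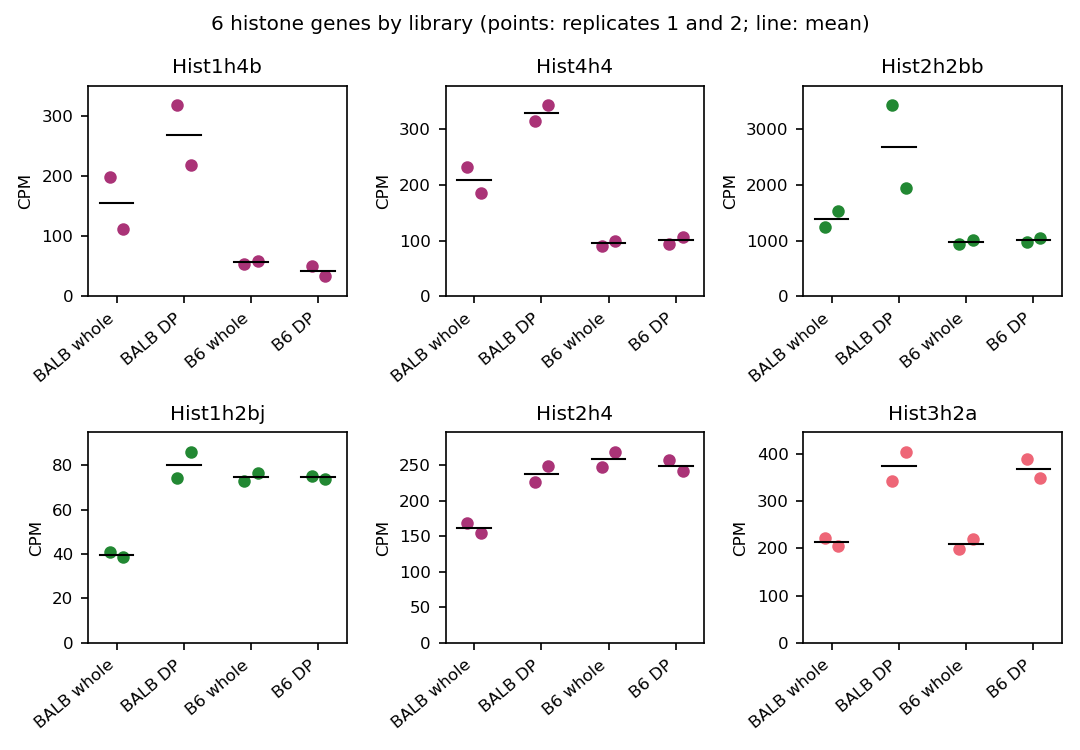
Each panel gives 1 histone gene, with CPM on a linear axis from 0, a point for each of the 2 libraries of a group and a line at their mean. Hist1h4b and Hist4h4 are higher in BALB in both populations, Hist1h2bj and Hist2h4 are lowest in BALB whole thymocytes, and Hist3h2a follows the population, with 343 and 405 CPM in BALB DP and 389 and 349 CPM in B6 DP.

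The genomic surroundings of the H4 genes that differed in both populations are shown by their promoters, with the promoter of Hist1h4d beside them as an H4 gene that differed in DP cells but was not called in whole cells, and that of Hist2h2bb as the H2B gene with the most reads. Each is 150 bases long, from the RefSeq promoter table (GRCm38.p6), and ends directly before the GENCODE start of the gene, except that 26 bases lie between in Hist1h4b and 2 in Hist2h2bb. Capitals mark matches on either strand to TATAAA, the core element that binds TBP, to CCAAT, the box that binds NF-Y, to ATTTGCAT, the octamer of Oct factors, and to GGTCCG, the core of the H4 element that binds HINFP.
Hist1h4b (chr13:23756837-23756986, + strand): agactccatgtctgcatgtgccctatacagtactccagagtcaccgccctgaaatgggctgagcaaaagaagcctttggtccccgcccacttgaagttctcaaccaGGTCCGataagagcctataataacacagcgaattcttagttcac
Hist4h4 (chr6:136804416-136804565, - strand): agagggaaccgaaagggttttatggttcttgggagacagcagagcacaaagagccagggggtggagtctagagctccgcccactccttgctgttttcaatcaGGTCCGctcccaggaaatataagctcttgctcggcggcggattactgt
Hist1h4d (chr13:23581448-23581597, + strand): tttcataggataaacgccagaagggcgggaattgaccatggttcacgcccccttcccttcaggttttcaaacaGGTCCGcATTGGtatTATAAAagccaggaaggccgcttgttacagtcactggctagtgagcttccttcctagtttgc
Hist2h2bb (chr3:96269600-96269749, + strand): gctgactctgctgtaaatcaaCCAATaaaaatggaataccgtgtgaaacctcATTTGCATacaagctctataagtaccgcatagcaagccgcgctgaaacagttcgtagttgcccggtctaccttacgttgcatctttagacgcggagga

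Promoters of 62 members were matched in that table by gene and position, and the motifs were counted in the whole windows of 300 bases (250 before and 50 after each start). The H4 core was in 91.7% of the 12 H4 windows, against 8.25% of all 32851 promoter windows. The CCAAT box was in 100% of the H1, H2A, H2B and H3 windows, in 3 of the 12 H4 windows and in 37.4% of all. The octamer was in 38.9% of H2A and 37.5% of H2B windows, in none of the H1, H3 and H4 windows, and in 1.74% of all. TATAAA was in 56.5% of member windows, in 8 of the 12 H4 windows and in 13.6% of all. The windows of Hist1h4b and Hist4h4 held the H4 core and none of the other 3 motifs, while that of Hist1h4d also held TATAAA and the box of NF-Y. A match describes letters only, and the letters are those of the B6 reference genome.

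In BALB, 48 of the 61 tested members were lower in whole than in DP thymocytes and none was higher. Of all genes tested, 6.59% were called lower and 10.6% higher in this comparison, which uses the same BALB DP libraries as the strain comparison in DP cells. The median log2 fold change of the members was -0.97, against -0.00 for all genes, and 59 of 61 members were negative. By class, 13 of 14 H2A, 5 of 6 H1, 14 of 17 H2B, 9 of 12 H3 and 7 of 12 H4 members were lower. The count was 28 without BALB whole replicate 2 (2.21% of all genes lower), and 44 without BALB whole replicate 1 (2.34%).

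Hist1h1c had 1737 and 1713 CPM in BALB whole thymocytes, against 4092 and 2701 CPM in BALB DP thymocytes (log2 -0.98 ± 0.15 SE, edgeR adjusted p = 0.0011). Hist1h1e had 830 and 701 CPM in BALB whole, against 1792 and 1337 CPM in BALB DP. Hist1h2ak had 342 and 338 CPM in BALB whole, against 933 and 606 CPM in BALB DP. In these genes the whole libraries lay close together and well below both DP libraries. Of the other core histones, Hist1h4d fell to 412 and 262 CPM in BALB whole, against 1119 and 670.4 CPM in BALB DP. Hist2h3c2 fell to 193 and 159 CPM in BALB whole, against 607 and 323 CPM in BALB DP. Hist1h2bj fell to 40.8 and 38.7 CPM in BALB whole, against 74.3 and 86.2 CPM in BALB DP. Hist1h4b had 198 and 112 CPM in BALB whole, against 318 and 218 CPM in BALB DP (adjusted p = 0.043), and kept this call under 8 of the 16 alternatives. Hist2h2be, an H2B gene known from olfactory neurons of the mouse, was 1 of the 13 members not called (log2 0.16 ± 0.18 SE, adjusted p = 0.59).

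In B6, whole and DP thymocytes differed in 6 members, all lower in whole cells. They were Hist1h1d, Hist1h2af, Hist1h2bf, Hist1h2bp, Hist3h2a and Hist3h2ba, 6 of 61 members beside 3.27% of all genes called lower and 6.89% called higher. The median log2 fold change of the members was -0.13, and 47 of 61 were negative. The 6 genes were also lower in whole than in DP thymocytes of BALB, where they make up 12.5% of the members called. There 48 of the 61 tested members were called lower, so most members recur and the overlap says little about these 6. The comparisons share no library, but all libraries were fitted together with a shared estimate of the spread. Hist1h1d had 993 and 1032 CPM in B6 whole thymocytes, against 1472 and 1311 CPM in B6 DP thymocytes, and the H2B gene Hist1h2bf had 60.2 and 63.4 CPM in B6 whole, against 84.1 and 86.1 CPM in B6 DP. Neither gene's groups overlapped. The count depended on the libraries in the fit, with 1 gene called without B6 DP replicate 2, B6 whole replicate 1 or B6 whole replicate 2, 2 without B6 DP replicate 1, and 14 without either BALB DP library. All genes called lower made up 0.379% to 0.606% in the fits without a B6 library, 7.90% without BALB DP replicate 1 and 7.93% without BALB DP replicate 2.

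Of the Hist3 genes, a small cluster on chromosome 11, Hist3h2a and Hist3h2ba were lower in whole than in DP thymocytes of both strains, and the pseudogene Hist3h2bb-ps was called lower in BALB (log2 -1.51 ± 0.36 SE, edgeR adjusted p = 0.013) but not in B6 (-0.52 ± 0.28 SE, adjusted p = 0.30). Hist3h2a, an H2A gene, had 222 and 205 CPM in BALB whole thymocytes, against 343 and 405 CPM in BALB DP thymocytes. In B6 it had 198 and 220.1 CPM in whole, against 389 and 349 CPM in DP thymocytes. The log2 fold changes of whole over DP were -0.81 ± 0.12 SE in BALB and -0.82 ± 0.12 SE in B6 (edgeR adjusted p = 0.00068 and 0.0011), and both passed under each of the 16 alternatives. Between strains its values overlapped in DP and in whole thymocytes, with differences of 0.02 ± 0.11 and 0.03 ± 0.12 (log2 ± SE). Hist3h2a overlaps Trim17 on the same strand in the annotation, so reads of the overlap cannot be told apart. Hist3h2ba, an H2B gene, had 30.2 and 22.5 CPM in BALB whole, against 55.9 and 61.7 CPM in BALB DP, and 39.7 and 33.9 CPM in B6 whole, against 57.1 and 57.4 CPM in B6 DP. Its log2 fold changes of whole over DP were -1.15 ± 0.17 in BALB and -0.64 ± 0.16 in B6 (± SE).

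**Figure D4:**
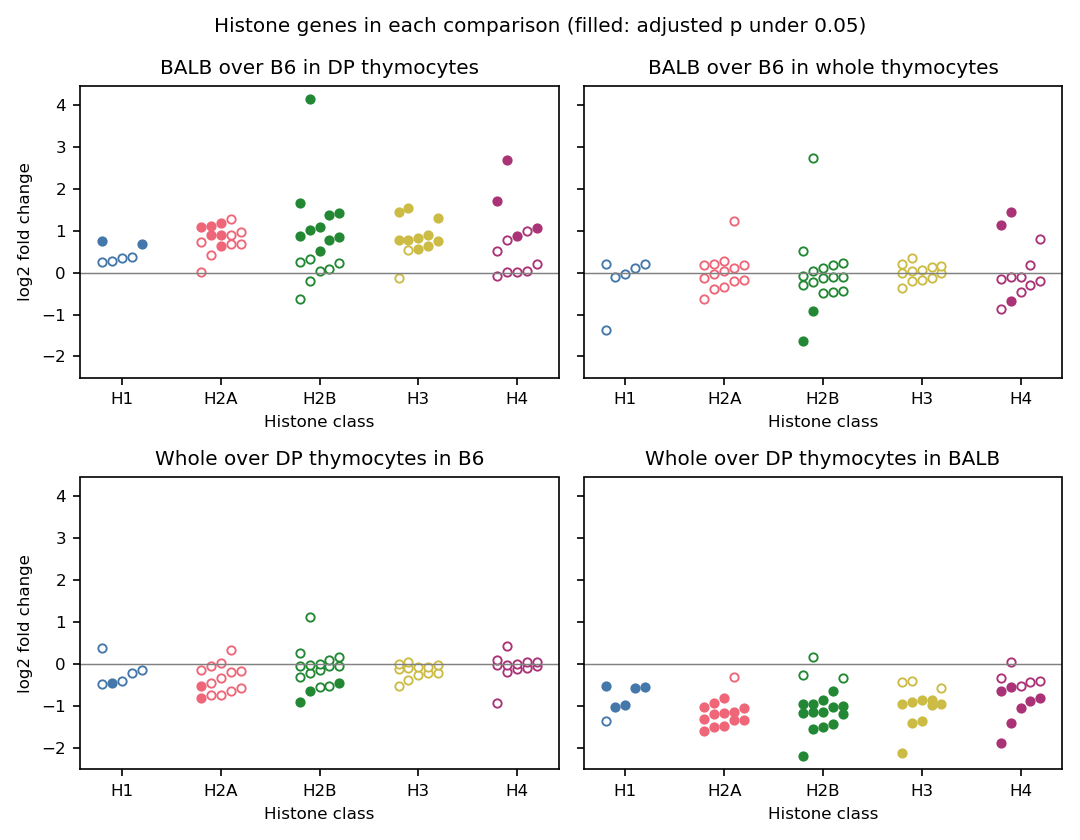
Each panel is 1 comparison and each point 1 tested histone gene, by class, with its log2 fold change on the vertical axis; filled points passed an adjusted p of 0.05. The members' median is 0.75 for BALB over B6 in DP thymocytes, -0.09 in whole thymocytes, -0.13 for whole over DP in B6 and -0.97 in BALB.

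Whether the strain difference itself differed between whole and DP thymocytes was tested by the interaction of strain and population. No member passed an adjusted p of 0.05 in edgeR's quasi-likelihood test, beside 0.105% of all genes called higher and 0.0175% called lower. At an unadjusted p under 0.05 there were 36 of 61 members, against 10.9% of all genes, and 56 of 61 had a negative estimate (median -0.86), that is, a smaller excess of BALB in whole than in DP cells. DESeq2's Wald test called 1 member lower and limma-voom none. Without BALB DP replicate 1 there were 6 members called lower, beside 0.21% of all genes. Without BALB DP replicate 2 there were 37 lower and 1 higher, beside 7.78% of all genes lower and 3.22% higher. By the adjusted test on all libraries, then, a difference between populations in the strain effect was not shown for any single member.

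The BALB DP libraries differed from each other more in histone genes than in other genes. Of the 61 members, 17 (27.9%) differed more than 2-fold between replicates 1 and 2 of BALB DP, against 5.49% of all tested genes. The log2 ratios, on CPM + 0.5, had an SD of 0.80 over members and 0.51 over all genes, while in the other 3 groups the SD over members was 0.27 to 0.33. By class, 12 of 14 H2A genes were higher in replicate 1 (median log2 ratio 0.91), as were 11 of 17 H2B (0.28), 8 of 12 H3 (0.28), 3 of 12 H4 (-0.48) and 2 of 6 H1 genes (-0.33). Among H4 genes Hist1h4c, at 1.42, and Hist1h4d, at 0.74, were higher in replicate 1. The spread by class was not tested. The extremes, named after their values were seen, were Hist1h2bg with 691 and 173 CPM and Hist1h4j with 20.7 and 81.9 CPM in BALB DP replicates 1 and 2, against 136 and 139 CPM and 45.8 and 47.3 CPM in B6 DP libraries.

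**Figure D5:**
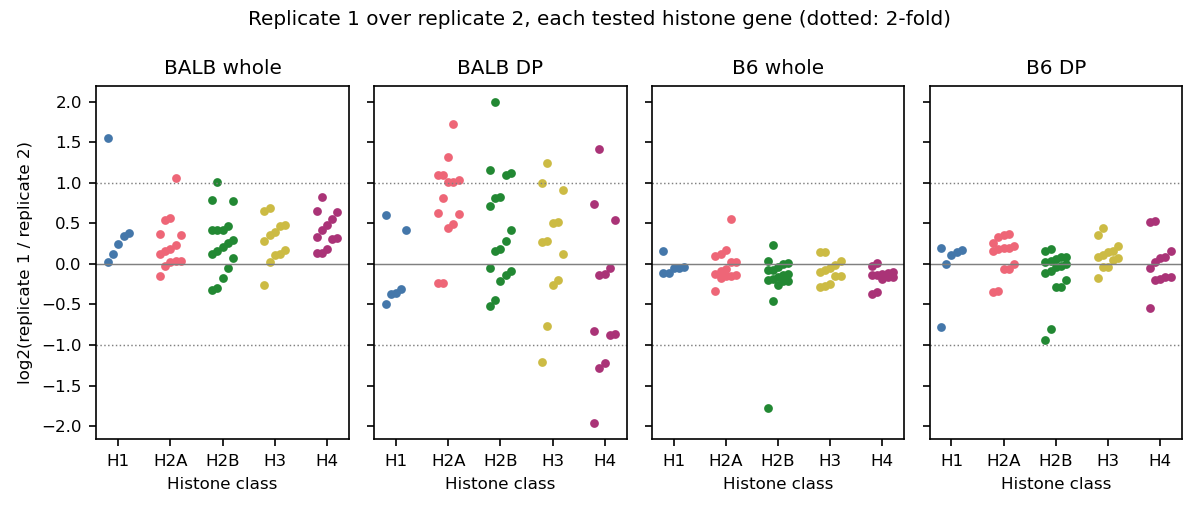
Each point is 1 tested histone gene, by class, and gives the log2 ratio of replicate 1 to replicate 2 in each of the 4 groups; dotted lines mark 2-fold. In BALB DP thymocytes the points spread between -1.96 and 1.99, with H2A mostly above 0 and H4 mostly below.

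The strain comparison in DP cells was therefore repeated with each BALB DP library left out. Without replicate 1, 31 members were higher and 0 lower, 22 of them among the 32 of the full fit, beside 4.16% of all genes higher and 4.31% lower. Without replicate 2, 39 were higher and 3 lower, beside 16.6% of all genes higher and 12.7% lower, so the 3 lower members are under the background. By class, the fit without replicate 1 called 5 of 6 H1, 2 of 14 H2A, 6 of 17 H2B, 10 of 12 H3 and 8 of 12 H4 members higher. The fit without replicate 2 called 2 of 6 H1, 11 of 14 H2A, 11 of 17 H2B, 10 of 12 H3 and 5 of 12 H4 members higher. The H3 count was the same in both, while the counts of H1, H2A, H2B and H4 depended on which BALB DP library was used. The members' median log2 fold change was 0.53 without replicate 1 and 0.89 without replicate 2. For whole over DP thymocytes in BALB, 49 members were lower without replicate 1, of which 41 were among the 48 of the full fit, beside 5.34% of all genes lower. Without replicate 2, 46 were lower and 2 higher, beside 17.3% of all genes lower and 16.1% higher.

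H2A and H2B genes often stand head to head and share a promoter region. By the annotation 13 such pairs have starts 173 to 306 bases apart, and both genes were tested in 11. In the strain comparison in DP cells, both genes of 3 pairs were called higher, 1 gene of 5 pairs and neither of 3 pairs. Of all tested members, 6 of 14 H2A and 10 of 17 H2B genes were higher there. Hist1h2ah and Hist1h2bk, with starts 302 bases apart, were both higher, by 1.18 and 1.38 (log2). They have 90.7% and 74.2% of their 50-base words in other genes. Hist2h2ac was higher by 1.08 while its partner Hist2h2be had a log2 fold change of 0.24 and was not called. In BALB whole over DP thymocytes both genes of 9 pairs were called lower, and only 1 gene of the pair Hist2h2ac and Hist2h2be. The 9 include Hist3h2a with the pseudogene Hist3h2bb-ps. Of all tested members, 13 of 14 H2A and 14 of 17 H2B genes were lower there. Most pairs would be called in both genes from those counts alone, and whether partners moved together was not tested.

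Members were called in each of the groups set by where the annotated transcript ends. In the strain comparison in DP cells, 32 of all 61 tested members were higher, beside 6.85% of all genes tested. Of the 22 tested members whose transcript runs past the stem-loop, 11 were higher, with a median log2 fold change of 0.72. Of those whose transcript ends near it, 8 of 17 were higher (median 0.56), and of those with no match 13 of 22 (median 0.88). These shares lie near that of the whole family, and differences between the groups were not tested. By shared sequence, 16 of 38 members with under 50% of their words elsewhere were higher (median 0.60), and 16 of 23 of the others (median 0.87). Of the 13 tested members with under 10% of their words elsewhere, 4 were called higher, namely Hist1h1c, Hist1h1e, Hist2h2bb and Hist4h4, and 9 were not called, among them Hist1h1d, Hist1h2be, Hist2h4 and Hist3h2a. Hist1h4b has 54.6% of its words in other genes.

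Genes of DNA replication and S phase were higher in BALB DP cells as well. Of 49 tested genes of an S phase list, 29 were higher and 0 lower in BALB DP than in B6 DP thymocytes, beside 6.85% and 6.14% of all genes. The higher ones include Hells, a chromatin remodeller, Ccna2, which encodes cyclin A, E2f8, a repressor of the E2F family, and Mcm3, a subunit of the replicative helicase. Ccna2 had 289 and 251 CPM in BALB DP, against 166 and 154 CPM in B6 DP. The median log2 fold change of the list was 0.54, and its summed level ranged from 6996 to 7571 CPM in BALB DP and from 5122 to 5261 CPM in B6 DP libraries. In whole thymocytes no gene of the list differed between strains by the edgeR test, and 1 of 49 was under an unadjusted p of 0.05, beside 14.5% of all genes. In BALB, 19 were lower in whole than in DP cells (6.59% of all genes), and in B6 2 were higher (6.89% of all genes) and none lower. In that B6 comparison 42 of the 49 had a positive log2 fold change (median 0.15). The histone members went the other way there, with 47 of 61 negative (median -0.13). The list's part in the histone result was not tested.

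Of 27 tested genes that supply, process and place histones, 8 were higher and 1 lower in BALB DP than in B6 DP, beside the same shares of all genes. The higher ones include Asf1b, Chaf1a and Nasp, which encode histone chaperones or their subunits, and Slbp, the stem-loop binding protein. Slbp had 344 and 213 CPM in BALB DP, against 134 and 137 CPM in B6 DP, and its log2 fold change was 1.05 ± 0.20 SE (edgeR adjusted p = 0.0054). The 3′ end nuclease gene Cpsf3 was lower in BALB in DP and in whole cells, by -0.53 and -0.67 (log2). In BALB, 7 of the 27 were lower in whole than in DP cells, beside 6.59% of all genes. In B6 none was called, with 3 of 27 at an unadjusted p under 0.05, beside 23.9% of all genes.

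Many replacement histones are made outside S phase as well, from polyadenylated mRNA. This need not hold for every gene listed here, H2afx included. Of 10 tested genes, 4 were higher in BALB DP than in B6 DP thymocytes, namely H1fx, H2afx, H2afz and H2afj, beside 6.85% of all genes. H2afx, whose protein marks DNA breaks, had 502 and 341 CPM in BALB DP, against 224 and 194 CPM in B6 DP. H1fx, a linker histone variant, had 79.2 and 102 CPM in BALB DP, against 15.7 and 16.5 CPM in B6 DP, and it was the 1 gene of the list higher in BALB whole cells. H3f3b, which encodes a replacement form of H3, was lower in whole than in DP cells of both strains, by -0.87 in BALB and -0.74 in B6 (log2). In whole over DP cells 6 genes of the list were lower in BALB and 2 in B6, beside 6.59% and 3.27% of all genes.

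RNAs without a poly(A) tail were listed because they can vary with how RNA was selected. Of 15 tested, 0 were higher and 3 lower in BALB DP than in B6 DP thymocytes, beside 6.85% and 6.14% of all genes. Rpph1, Terc and Scarna10 were those lower in DP cells, and each was also lower in BALB whole than in B6 whole thymocytes (2.61% of all genes). The summed level of the list, most of it Rn45s, was 37621 and 78743 CPM in BALB DP libraries and 67644 and 90926 CPM in B6 DP libraries. BALB DP replicate 1, with the largest histone share, had the lowest sum, while replicate 2 lay within the range of B6 DP. BALB DP replicate 1 also had 30.8% of its reads in genes, against 23.5% in replicate 2 and 26.3% and 23.3% in B6 DP libraries. With library totals taken without these RNAs and the histone genes, 32 members were higher in BALB DP and none lower, the same 32 genes. That changed only the scaling, so it cannot show an effect of how RNA was selected, which was not tested.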

How the data were processed

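The 8 thymocyte libraries were made with the TruSeq RNA kit (version 2), which does not keep strand, per the labels. The submitters' processing notes list HISAT2 2.2.0, HTSeq, DESeq2 1.42.1 and the build mm10, a B6 genome. For HTSeq's version, the gene annotation and read length, the value is not given in the sources used here. Each deposited file lists raw counts by gene symbol, 2632083 to 5974684 per library, and HTSeq's summary lines, which stayed out of the tests. Reads aligned to several places are outside the gene counts, which lowers the counts of near-identical histone copies.

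Counts were fitted in R 4.3.3 with edgeR 4.0.16 (filterByExpr, TMM, quasi-likelihood, 1 coefficient per group), and p-values were adjusted by Benjamini-Hochberg over 11409 genes. CPM are counts scaled to the total over tested genes after TMM. Alternatives used DESeq2 1.42.0 and limma 3.58.1. The fit was tested on simulated data with the same spread for every gene and group. That does not cover the wider spread of histone genes between the BALB DP libraries. Annotation and transcripts were GENCODE M21, promoters RefSeq GRCm38.p6. Figures used Python 3.11.15 and matplotlib 3.10.9.

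The members, lists, tests and naming rule were chosen with earlier results of these data known. Values by library are given for the 20 called members with the smallest p in any comparison, the 3 with the highest mean CPM in each class, and the tested Hist3 and Hist4 members. Side lists are given by counts with up to 4 genes each.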

Additional observations from a re-analysis of the deposited data

How the results depend on the processing

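No called member changed direction under any alternative. Of 1452 values recomputed for 91 called differences, 1249 stayed past the threshold and 203 missed it. Fits on only the 4 libraries compared called 16 members higher in BALB DP over B6 DP (32 on all libraries), 4 higher and 5 lower in BALB whole over B6 whole (2 and 3), and 1 higher and 17 lower in whole over DP cells of B6 (0 and 6). With no filter, 5 members were higher in BALB whole over B6 whole, 1 was higher and 14 were lower in whole over DP cells of B6, and 34 were lower in the interaction (0 with the filter). In whole over DP cells of B6 the strict filter (1 CPM in 2 libraries, mean count 50) called 1 lower and DESeq2's Wald test 2, and DESeq2 called 1 lower in the interaction. Most counts in this section are given without the share of all genes called in the same fit. That share also moved between fits (above), so the counts describe the fits and not the family. The cause of these shifts was not tested. Leaving out 1 library at a time gave 9 to 39 higher and 0 to 3 lower in BALB DP over B6 DP. It gave 1 to 4 higher and 1 to 4 lower in BALB whole over B6 whole, and 0 higher and 1 to 14 lower in whole over DP cells of B6. In whole over DP cells of BALB it gave 0 to 2 higher and 28 to 49 lower, and in the interaction 0 to 1 higher and 0 to 37 lower. A group left with 1 library is assumed to vary like the others. A replicate block gave 33 higher in BALB DP over B6 DP, 2 higher and 3 lower in BALB whole over B6 whole, 4 lower in whole over DP cells of B6, 47 lower in BALB and 0 in the interaction. Deviations of same-numbered libraries correlated at -0.04 to 0.06, so the numbers were not used to pair libraries. DESeq2 size factors, limma-voom and totals without histones and RNAs lacking a poly(A) tail left every count within 1.5 times. With 2 libraries a group, small differences are beyond reach, and levels of near-identical copies are limited by reads that align to several places.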
